A study of Homo sapiens with 8 samples.

Results

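This account covers 26 genes whose mRNA was lower in HCT116 cells, a human colorectal carcinoma line, after treatment with Fusobacterium nucleatum (F. nucleatum), an oral bacterium that colonizes tumours of the colon and rectum. They were chosen from the deposited expression table by 2 limits. The mean over the 4 input libraries had to be at least 1 FPKM (fragments scaled by transcript length and by the total of mapped fragments). The higher F. nucleatum value plus 1 had to be at most 0.77 times the lower Control value plus 1, and the quotient of these values is called the rule ratio here. Of 19475 entries, 11088 passed the first limit and 33 of these (0.298%) passed the second. The list here leaves out 7 of the 33, namely RBM12, DCAF5, GLRX2, PHC3, ACVR1B, ID1 and CDKN2A, and would have left out genes whose symbol starts with SLC, of which 0 passed. The mirrored limits, with F. nucleatum above Control, were met by 123 genes (1.11%). Because these same values chose the 26 genes, their mRNA levels are given as a description, with no test.

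The study asked how the bacterium alters N6-methyladenosine (m6A), a methyl group on adenosines of mRNA. Control cells received PBS and the other cells F. nucleatum for 2 h, and both groups were otherwise the same unmodified line. Polyadenylated RNA fragments were sequenced before (input) and after immunoprecipitation with an m6A antibody (IP), with 2 libraries of each kind per group, 8 in all. The study calls the libraries of a group biological replicates. The labels do not name separate cultures, and p-values here measure only the spread between these libraries.

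m6A is written on nascent transcripts by a methyltransferase complex, mostly where a GGAC-type motif lies in a long internal exon, near the stop codon or in the 3′UTR. Reader proteins bind the mark and can shorten the life of the mRNA or alter its splicing and translation. An m6A peak marks a stretch where IP fragments exceed those of the input, and the strength of its p-value depends on how many fragments fall there as well as on the enrichment. These lists hold no enrichment value, so the amount of an mRNA and the share of it that is methylated cannot be told apart from a p-value alone.

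The 9 sequences that follow come from the m6A regions on which the peak results turn. The first is the region with a peak in both Control lists and in neither F. nucleatum list. The next 6 had weaker p-values in both F. nucleatum lists, BTBD10 had stronger ones in both, and RPL13 had the strongest of these genes in every list. Each is the 25-base window around the GGAC nearest the middle of the region, read 5′ to 3′ on the strand of the gene from GRCh37 (hg19), with every GGAC in capitals.
PLEKHN1, 3′UTR region, chr1:910292-910316, plus strand: gaaggtcggaGGACagagaaaggtc
MYBBP1A, stop codon region, chr17:4442466-4442490, minus strand: ttctgggctgGGACcctggctccag
TRIO, stop codon region, chr5:14508673-14508697, plus strand: agcagtgcttGGACacagagctgca
ARFIP2, 3′UTR region, chr11:6497960-6497984, minus strand: agctcttctcGGACtcccctgggcc
MTR, 3′UTR region, chr1:237067091-237067115, plus strand: aagagaaaaaGGACatttccctcca
HSD11B2, stop codon region, chr16:67470997-67471021, plus strand: caagtgtcctGGACcctggcctaaa
BEGAIN, CDS region, chr14:101004517-101004541, minus strand: gcgaggggggGGACggGGACaggct
BTBD10, stop codon region, chr11:13410481-13410505, minus strand: acattccccaGGACcagctggtagt
RPL13, 3′UTR region, chr16:89629452-89629476, plus strand: gccctcctggGGACttggaatcagt
A region was named for the place of its midpoint, with 100 nt on either side of the stop codon counted as stop codon. A GGAC in such a window is a match of letters and not a mapped m6A site. Most regions hold one, 72.8% of all 22001 regions and 42 of the 51 regions of these genes (82.4%).

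By the ratio of group means the 26 genes were 24.1% (MIB2) to 85.6% (RLIM) lower with F. nucleatum, with a median of 36.95%. Their median difference on the log2(FPKM + 1) scale was -0.57, beside 0.01 for all 11088 genes. That both F. nucleatum values lay below both Control values was fixed by the limits, and it held for 21.1% of all tested genes. Only NADK2, KLHL23 and RLIM were at least 2-fold lower by the means. In 18 of the 26 the Control values lay within 1.1-fold of each other, and in 15 the F. nucleatum values did. The limits favour genes whose replicates lie close, so close replicates here are no separate sign of reliability. The same shares over all tested genes were not computed. In these bulk libraries fewer cells expressing a gene and less RNA per cell cannot be told apart.

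**Figure D1:**
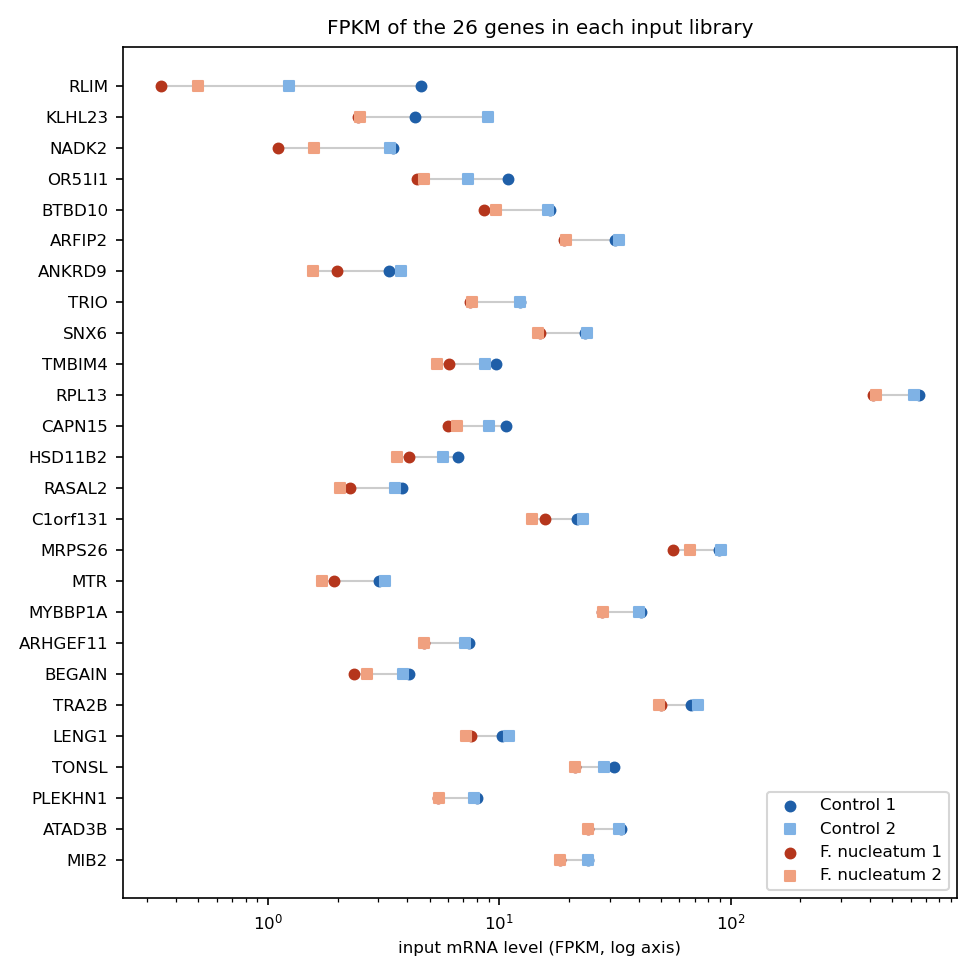
Input mRNA level (FPKM, log axis) of the 26 genes in each of the 4 input libraries, 1 point per library. Genes are ordered by the difference of the group means on the log2(FPKM + 1) scale. The pairs of points of a group lie close together in most genes, whereas the Control values of RLIM (4.57 and 1.23 FPKM) and KLHL23 (4.31 and 8.94 FPKM) lie apart.

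The genes are described in groups by role, made by hand once the genes were known and no evidence of a theme. Small GTPases and membranes accounted for 7 genes, which were 30.5% to 41.2% lower. TRIO (chr5:14143451-14532237, plus strand), an exchange factor that activates small GTPases in cell migration, was at 12.3 FPKM in both Control libraries and 7.45 and 7.60 FPKM with F. nucleatum. Its mean went from 12.3 ± 0.0333 to 7.53 ± 0.104 FPKM (SD, n = 2), a log2 difference of -0.64 (SE 0.07). Each SE of a log2 difference here is the moderated one of the limma fit described below. It draws on the spread of all tested genes as well as that of the gene itself. ARHGEF11 (chr1:156904632-157015534, minus strand), another exchange factor for small GTPases, was at 7.38 and 7.07 FPKM in Control and 4.73 and 4.75 FPKM with F. nucleatum. RASAL2 (chr1:178063239-178453282, plus strand) acts the other way on its GTPase, as a GAP that switches Ras off. It was at 3.81 and 3.53 FPKM in Control and 2.27 and 2.04 FPKM with F. nucleatum.

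The other 4 genes of this group act on membranes. ARFIP2 (chr11:6495913-6502709, minus strand) encodes arfaptin 2, a curved BAR-domain protein that binds Arf and Rac GTPases at the Golgi. It was at 31.6 and 32.8 FPKM in Control and 19.0 and 19.4 FPKM with F. nucleatum, a log2 difference of -0.72 (SE 0.06). SNX6 (chr14:35030299-35099366, minus strand), a sorting nexin that works with retromer in endosome-to-Golgi transport, was at 23.5 and 23.9 FPKM against 14.9 and 14.7 FPKM, a log2 difference of -0.64 (SE 0.06). In both genes the replicates of a group were almost equal. TMBIM4 (chr12:66529626-66563807, minus strand), a Golgi membrane protein that protects against apoptosis, was at 9.72 and 8.70 FPKM in Control and 6.06 and 5.40 FPKM with F. nucleatum. PLEKHN1 (chr1:901862-911245, plus strand), a pleckstrin-homology domain protein, was at 7.99 and 7.77 FPKM against 5.44 and 5.51 FPKM.

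Ribosome, nucleolus and RNA processing genes numbered 5 and were 29.5% to 33.9% lower. RPL13 (chr16:89627085-89630950, plus strand), a protein of the large cytosolic ribosomal subunit, was the most abundant of the 26. It was at 653 and 620 FPKM in Control and 415 and 427 FPKM with F. nucleatum, a mean of 637 ± 23.3 against 421 ± 8.71 FPKM (SD, n = 2) and a log2 difference of -0.60 (SE 0.05). MRPS26 (chr20:3026698-3028896, plus strand) belongs to the small subunit of the mitochondrial ribosome. It was at 89.6 and 91.3 FPKM in Control, and its F. nucleatum values of 56.2 and 66.7 FPKM were further apart. MYBBP1A (chr17:4442192-4458681, minus strand), a nucleolar protein that takes part in rRNA synthesis, was at 41.1 and 40.1 FPKM against 27.7 and 28.1 FPKM. TRA2B (chr3:185632346-185655891, minus strand), a splicing factor of the SR-like kind, was at 67.7 and 72.4 FPKM in Control and 49.9 and 48.9 FPKM with F. nucleatum. C1orf131 (chr1:231359509-231376933, minus strand), another nucleolar protein, was at 21.7 and 23.1 FPKM against 15.8 and 13.9 FPKM.

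The 6 genes linked to ubiquitin, to BTB domains (folds that often join a target to a cullin ubiquitin ligase) or to proteolysis held both ends of the range. RLIM (chrX:73802811-73834459, minus strand), a RING ubiquitin ligase that degrades LIM-domain cofactors and takes part in X inactivation, was at 4.57 and 1.23 FPKM in Control and 0.343 and 0.495 FPKM with F. nucleatum. Its Control values differed 3.72-fold, so the size of its log2 difference, -1.31 (SE 0.41), was poorly fixed. Without Control 1 the mean of the remaining libraries fell under the floor of 1 FPKM, so the gene left the list by the first limit. MIB2 (chr1:1550834-1565985, plus strand), a ubiquitin ligase for Notch ligands, had the smallest difference and nearly equal replicates, with 24.1 FPKM in both Control and 18.3 FPKM in both F. nucleatum libraries. BTBD10 (chr11:13409555-13484844, minus strand), a BTB-domain protein, was at 16.5 and 16.3 FPKM in Control and 8.59 and 9.72 FPKM with F. nucleatum, a log2 difference of -0.78 (SE 0.08). ANKRD9 (chr14:102968104-102976136, minus strand), an ankyrin-repeat substrate receptor of a cullin ligase, was at 3.33 and 3.77 FPKM against 1.99 and 1.57 FPKM. CAPN15 (chr16:577712-604636, plus strand), a member of the calpain protease family, was at 10.7 and 9.02 FPKM in Control and 5.97 and 6.54 FPKM with F. nucleatum.

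KLHL23 (chr2:170550998-170633499, plus strand), a BTB-kelch protein, was at 4.31 and 8.94 FPKM in Control and 2.44 and 2.49 FPKM with F. nucleatum. The Control values again lay apart, by 2.07-fold. The table also lists PHOSPHO2-KLHL23, a read-through transcript that shares the KLHL23 exons, at 5.51 and 0.0246 FPKM in Control and 7.95 and 6.95 FPKM with F. nucleatum. Where one entry was high the other was low. Added together, they came to 9.82 and 8.97 FPKM in Control and to 10.4 and 9.45 FPKM with F. nucleatum, so the groups overlapped. The groups thus lay apart in the KLHL23 entry and not in the sum. No p-value is given for the sum because KLHL23 was chosen on these libraries.

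Metabolism and mitochondria accounted for 4 genes. NADK2 (chr5:36192691-36242381, minus strand), the mitochondrial NAD kinase, which makes NADP inside mitochondria, had the lowest rule ratio of the 26. It was at 3.46 and 3.36 FPKM in Control and 1.103 and 1.58 FPKM with F. nucleatum, a mean of 3.41 ± 0.0705 against 1.34 ± 0.335 FPKM (SD, n = 2) and a log2 difference of -0.92 (SE 0.12). MTR (chr1:236958560-237084578, plus strand), methionine synthase, which remakes methionine from homocysteine and so feeds the methyl donor S-adenosylmethionine, was at 3.02 and 3.19 FPKM in Control and 1.93 and 1.71 FPKM with F. nucleatum. HSD11B2 (chr16:67464555-67471456, plus strand), which turns active cortisol into cortisone, was at 6.64 and 5.71 FPKM against 4.08 and 3.59 FPKM. ATAD3B (chr1:1407145-1433228, plus strand) is a AAA ATPase of the mitochondrial inner membrane. Its values were 33.4 and 32.9 FPKM in Control and 24.3 FPKM in both F. nucleatum libraries. Its near-identical paralog ATAD3A, named after its values were seen, was at 31.5 and 32.5 FPKM in Control and 26.1 and 27.01 FPKM with F. nucleatum. How reads were divided between ATAD3A and ATAD3B is not known, so the value of either alone is uncertain.

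The remaining 4 genes share no role. TONSL (chromosome 8, minus strand), a scaffold that helps repair stalled replication forks, was at 31.2 and 28.3 FPKM in Control and 21.3 FPKM in both F. nucleatum libraries. LENG1 (chr19:54658899-54663459, minus strand) is little characterized. It was at 10.3 and 10.97 FPKM in Control and 7.54 and 7.17 FPKM with F. nucleatum. BEGAIN (chr14:101003484-101053754, minus strand), a guanylate-kinase-associated protein known from synapses, was at 4.07 and 3.85 FPKM against 2.36 and 2.67 FPKM.

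OR51I1 (chr11:5461800-5462744, minus strand) encodes an olfactory receptor, a class known from the nose, and was at 10.9 and 7.29 FPKM in Control and 4.42 and 4.72 FPKM with F. nucleatum. It lies inside the annotated spans of HBE1, HBG2 and OR51B5 on the same strand. HBE1 was at 91.2 and 80.7 FPKM in Control and 85.4 and 86.2 FPKM with F. nucleatum, and HBG2 at 6.57 and 4.93 FPKM against 4.28 and 5.67 FPKM, so that in both the groups overlapped. OR51B5 was higher, at 14.6 and 17.2 FPKM against 18.1 and 19.0 FPKM. Reads of these genes in the short OR51I1 interval cannot be told apart from its own. Among its neighbours, chosen after their values were seen, OR51Q1 was also lower, at 1.08 and 0.862 FPKM against 0.401 and 0.359 FPKM, and so was OR51M1, at 1.12 and 0.503 FPKM against 0.286 and 0.358 FPKM. Both had a mean under 1 FPKM. OR51B4, by contrast, was higher, at 6.37 and 6.03 FPKM against 7.71 and 7.15 FPKM. OR51B2 was higher too, at 2.57 and 2.29 FPKM against 3.13 and 3.03 FPKM. In OR51I2 and OR51B6 the groups overlapped.

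Exons of 5 further genes of the 26 overlap a gene on the other strand. LENG1 overlaps CNOT3, which was at 26.9 and 25.8 FPKM in Control and 25.98 and 26.7 FPKM with F. nucleatum. NADK2 overlaps SKP2, which was at 7.41 and 7.69 FPKM against 7.61 and 7.59 FPKM. In both pairs the partner had overlapping groups. ANKRD9, MYBBP1A and PLEKHN1 overlap TECPR2, SPNS2 and PERM1, all between 0.933 and 2.78 FPKM. Whether the counting used strand is not given in the sources used here.

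The limits cut through a continuous range. Just inside them were BEGAIN, TONSL and MIB2, with a rule ratio of 0.757, 0.763 and 0.7699. Just outside lay RPUSD1 with 56.0 and 55.6 FPKM in Control and 39.5 and 42.6 FPKM with F. nucleatum (ratio 0.771). MRPL23 followed with 109 and 104 FPKM against 79.3 and 80.1 FPKM (ratio 0.771). The next was RABEP2 with 5.45 and 4.88 FPKM against 3.14 and 3.56 FPKM (ratio 0.775). MRPL23, like MRPS26, is a protein of the mitochondrial ribosome.

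Where a gene belongs to a named family, its relatives were read beside it, as a description only, since the families were picked once the 26 genes were known. RPL13 was the second lowest of 82 cytosolic ribosomal protein genes, whose other 81 had a median log2 difference of 0.00. The lowest, RPL22L1, was at 156 and 140 FPKM in Control and 138 and 64.9 FPKM with F. nucleatum, so its value came mostly from F. nucleatum 2. The lower level of RPL13 was thus not shared by the bulk of ribosomal protein genes. SNX6 was the lowest of 26 sorting nexins (median of the other 25, 0.08), ARHGEF11 of 22 ARHGEF genes (-0.02), KLHL23 of 21 KLHL genes (0.02), BTBD10 of 9 BTBD genes (0.05) and CAPN15 of 7 calpains (0.02). In these families, too, the relatives centred near 0. The place of KLHL23 holds for its own entry alone, as the groups overlapped in its sum with PHOSPHO2-KLHL23.

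Mitochondrial ribosomal proteins and SR-type splicing factors held more genes with both F. nucleatum values below than all genes did. Of the 77 other mitochondrial ribosomal protein genes, 35 (45.5%) had both F. nucleatum values below both Control values, beside 21.1% of all genes, and their median log2 difference was -0.06. MRPS26 was the second lowest of 78. MRPS27 was lower still, at 36.2 and 33.6 FPKM against 31.1 and 9.67 FPKM, again mostly through F. nucleatum 2. TRA2B was the lowest of 13 SR and TRA2 genes, and 8 of the other 12 (66.7%) had both F. nucleatum values below both Control values, with a median of -0.09. SRSF2, the lowest of those 12, was at 281 and 286 FPKM in Control and 230.2 and 229.9 FPKM with F. nucleatum. No test was made on these families.

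**Figure D2:**
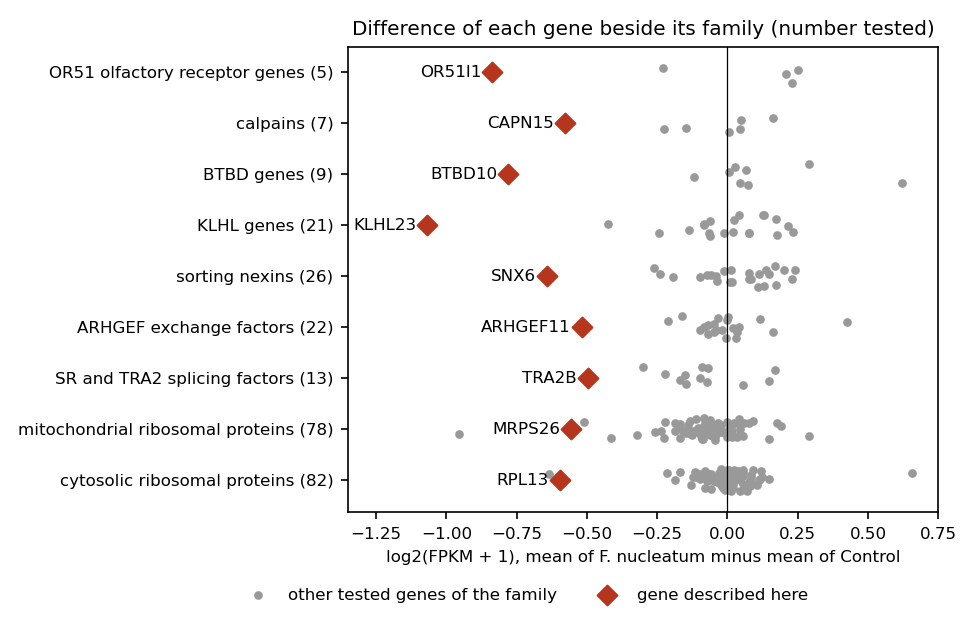
Difference of the group means on the log2(FPKM + 1) scale, F. nucleatum minus Control, for 9 of the 26 genes (red diamonds) and the other tested genes of their families (grey points, 1 per gene, number of tested genes in brackets). Most relatives lie near 0, and RPL13 at -0.60 and MRPS26 at -0.56 stand far below the bulk of 82 and 78 ribosomal protein genes. KLHL23 is drawn without its read-through entry PHOSPHO2-KLHL23, and the groups overlapped in the sum of both.

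The m6A peak lists did not enter the limits that chose the genes. Each list was called with 1 of the 4 input libraries that did, so the choice of lower genes can carry over into it. The lists were compared between groups with that limit. The permutation p-values given for these genes do not allow for it. Nearly all of the 26 carried m6A peaks. At least 1 list had a peak in 25 of them, beside 83.9% of all genes of at least 1 FPKM, and all 4 lists had one in 22, beside 68.7%. By list, 24 genes (92.3%) had a peak in Control 1 and 25 (96.2%) in Control 2, against 22 (84.6%) in F. nucleatum 1 and 23 (88.5%) in F. nucleatum 2. Among all these genes the shares were 74.9% and 77.3% in Control and 77.6% and 75.2% with F. nucleatum. The 26 genes differed by -7.69 percentage points (two-sided exact permutation p of 0.333, the smallest that 2 against 2 lists allow). The genes held 46 peaks in each Control list, 34 in F. nucleatum 1 and 42 in F. nucleatum 2, a difference of -8 between means of 46 ± 0 and 38 ± 5.66 peaks (SD, n = 2, exact permutation p of 0.333). The difference was -4 without F. nucleatum 1 and -12 without F. nucleatum 2. Over all genes the lists held 17198 and 18149 peaks in Control and 18365 and 17039 with F. nucleatum, so the whole lists overlapped (difference 28.5, exact permutation p of 1).

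Merging peaks of the 4 lists that touched in their exon blocks gave 51 regions in 25 of the 26 genes. SNX6 had none. Of these, 28 (54.9%) had a peak in all 4 lists, beside 51.5% of all regions. A further 14 regions (27.5%) were called in 1 list, beside 25.6% of all regions. Of the 14, 6 came from Control 1, 6 from Control 2, 1 from F. nucleatum 1 and 1 from F. nucleatum 2. Over all 5624 regions called in 1 list, 49.6% came from a Control list. Another 6 regions were in 3 lists, and 4 of these were missing from F. nucleatum 1 alone, in ATAD3B, CAPN15, RASAL2 and TONSL. Of all 2374 regions in 3 lists, 15.2% were missing from F. nucleatum 1. No test was made on these splits.

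A region was counted as lost when both Control lists and neither F. nucleatum list had a peak there. This held for 1 of the 51 regions, beside 2.64% of all regions, and 0 were gained, beside 2.38%. The lost region was the 209 nt in the 3′UTR of PLEKHN1 (chr1:910276-910484, plus strand), to which Control 1 gave a p-value of 2.9e-06 and Control 2 one of 7.6e-09. It was the only region of that gene, so PLEKHN1 had no called m6A with F. nucleatum, while its mRNA was at 5.44 and 5.51 FPKM. Absence means here that no peak was called. The window printed above for PLEKHN1 is 1 of 2 GGAC in that region, and 65.03% of the 3652 regions of like length (within 20%) hold the motif. When only peaks with a p-value of at most 1e-05 were read, regions of ATAD3B and BEGAIN joined that of PLEKHN1. That gave 3 lost regions of 37 (8.11%), beside 2.59% of all regions read so. The BEGAIN region was at 6.3e-07 and 2.3e-08 in Control and at 3e-05 and 0.00013 with F. nucleatum. It was lost there by the cut, with a peak called in every list.

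ATAD3B had its peaks mostly in the Control lists. Its 3′UTR region (chr1:1431105-1431554) was at 6.3e-16 and 3.3e-06 in Control, with no peak in F. nucleatum 1 and 0.00055 in F. nucleatum 2. Its other regions, in the CDS and off the canonical transcript, were called in Control 1 alone. OR51I1 had 1 weak peak in Control 2 (0.00091), and no other.

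Where a peak was present in all 4 lists, the p-values were compared. Both F. nucleatum lists had the weaker p-values in 11 of the 28 regions (39.3%), beside 18.9% of all 11341 such regions. Both had the stronger ones in 1 region (3.57%), beside 15.7%, and in the other 16 the groups overlapped. At the stop codon of MYBBP1A the p-values were 2.5e-67 and 4e-58 in Control and 1e-21 and 2e-13 with F. nucleatum, and in its CDS they were 1e-18 and 1.3e-20 against 6.3e-11 and 2.3e-06. MIB2 had a CDS region near its 3′ end (chr1:1564943-1565990) with 1.3e-61 and 7.9e-44 in Control against 7.9e-31 and 3.4e-10. For the long stop codon region of TRIO (1591 nt of exon) they were 1e-146 and 1e-148 in Control against 1e-122 and 4e-60. These gaps between groups exceeded those between replicates in MYBBP1A. In MIB2 and TRIO, by contrast, the F. nucleatum lists lay further from each other than F. nucleatum 1 lay from the nearer Control list.

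The other regions with weaker p-values in both F. nucleatum lists lay in the 3′UTR of ARFIP2 and MTR (2 regions), at the stop codon of HSD11B2 and RASAL2, and in the CDS of TRIO and BEGAIN. MTR, whose 3′UTR carried 3 regions in all lists, had 3.2e-34 and 3.2e-25 in Control at the one farthest downstream and 4e-22 and 6.3e-13 with F. nucleatum. ARFIP2 had 2.5e-35 and 6.3e-33 in Control against 3.2e-23 and 5e-25. HSD11B2 had 1.3e-22 and 6.3e-21 against 7.9e-19 and 1.3e-19, a smaller step. In all of these genes the input FPKM was lower as well, and the part of the lower mRNA level in the weaker p-values was not tested.

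BTBD10 went the other way. Its stop codon region, 776 nt of exon in 3 blocks, was at 1.1e-09 and 3.6e-09 in Control and at 3.2e-17 and 4e-14 with F. nucleatum, while its mRNA was 44.2% lower. RPL13 was listed at a p-value of 0 in every list, and the CDS region of MRPS26 at 1e-245 and 9e-299 in Control and at 9e-302 and 1e-218 with F. nucleatum. In neither ribosomal gene did the p-values separate the groups. NADK2, the gene with the lowest rule ratio, also had overlapping p-values in its 3′UTR region, 7.9e-12 and 1.2e-10 against 7.9e-13 and 6.9e-10. KLHL23, too, overlapped, with 2.5e-38 and 4e-71 in Control against 5e-52 and 2.5e-51, and its region covers exons that the read-through transcript shares.

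Over the 28 regions the median strength (-log10 of the p-value) was 16.5 and 19.7 in Control against 16.3 and 11.2 with F. nucleatum. The means were 18.1 ± 2.29 and 13.7 ± 3.64 (SD, n = 2), a difference of -4.40 (exact permutation p of 0.333). Control 1 and F. nucleatum 1 were almost level, and the difference came mostly from Control 2 and F. nucleatum 2. It was -1.51 without Control 2 and -1.82 without F. nucleatum 2. Over all 11341 regions in every list the medians were 15.5 and 18.2 in Control and 18.3 and 14.6 with F. nucleatum, a difference of -0.40 (exact permutation p of 1). Relative to these medians of its own list, the 28 regions lay 1.01 and 1.54 higher in Control and at -2.002 and -3.45 with F. nucleatum. On that scale the groups stood clear of each other (difference -4.00, exact permutation p of 0.333), still with the smallest p that 4 lists allow.

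The regions of these genes were placed on canonical transcripts of GENCODE in 49 of 51 cases. The CDS held 25 (51.0%, beside 45.2% of all placed regions), the stop codon 8 (16.3%, beside 15.3%), the 3′UTR 15 (30.6%, beside 32.5%) and the 5′UTR 1 (2.04%, beside 7.03%). The region in TRA2B was the one in the 5′UTR, and the other classes held shares close to those of all regions. The median region was 359 nt long with a GC content of 60%, beside 325 nt and 51.5% over all regions, and GGAC occurred 0.597 times per 100 nt, beside 0.511.

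The transcripts themselves were then compared with those of 10673 tested genes. Length (median 3647 nt, beside 3239), 3′UTR length (1225 nt, beside 1254) and number of exons (9 in both) lay near the middle of all tested genes. TATTTAT, the core of AU-rich elements that destabilize mRNA, searched on the transcript strand, was in the 3′UTR of 11 of the 26 (42.3%), beside 34.5%. The genes did differ in base composition. Their median GC content was 54.3%, beside 49.1%, and 10 of the 26 (38.5%) had at least 60%, beside 17.1% of all. A further 9 (34.6%) had under 45%, beside 36.7%, which leaves 7 in between. The GC-rich ones were ATAD3B, BEGAIN, CAPN15, HSD11B2, LENG1, MIB2, MRPS26, MYBBP1A, PLEKHN1 and TONSL. The AT-rich ones were BTBD10, C1orf131, KLHL23, NADK2, RASAL2, RLIM, SNX6, TMBIM4 and TRA2B.

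Base composition also moved with the libraries. Over all tested genes the median log2 difference went from 0.05 in transcripts under 40% GC to -0.05 in those of at least 65% GC. Among tested genes with at least 60% GC, 35.0% had both F. nucleatum values below both Control values, beside 21.1% of all. Replicates differed by GC too, since in the class of at least 65% Control 2 lay -0.09 from Control 1 and F. nucleatum 2 lay 0.05 from F. nucleatum 1. After each library was corrected for transcript GC content, a step chosen after seeing the data, 22 of the 26 genes still met the limits. The 4 that did not were HSD11B2, LENG1, MIB2 and TONSL, all GC-rich and all near the limit.

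By position, 7 of the 26 genes (26.9%) lay on chromosome 1, which holds 10.3% of the tested genes. PLEKHN1, ATAD3B and MIB2 lie together near the end of its short arm, within chr1:901862-1565985. Of the 26 tested genes in that stretch, 11 (42.3%) had both F. nucleatum values below both Control values. The share was 21.1% over all tested genes and 35.0% over those with at least 60% GC. The median log2 difference of the stretch was -0.13. PLEKHN1 and MIB2 set its ends, and for them and ATAD3B the limits fixed the order of the groups. The share and the median of the stretch thus partly reflect that choice. The median transcript GC content of the stretch was 65.3%. Position and GC content cannot be told apart there.

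Across the series, relative input depth could only be inferred, from the FPKM ratio that recurred most often among genes of up to 0.05 FPKM. Per pair of libraries, 7 to 18 of 261 to 329 such genes shared that ratio, so the values are rough. Inferred so, the input libraries ranged from 0.912 (F. nucleatum 2) to 1.23 times (F. nucleatum 1) the depth of Control 1. In these libraries 14566 to 14816 genes were above 0. Absolute depths, and any depth of the IP libraries, were unknown. The epithelial markers EPCAM (162 to 184 FPKM), KRT8 (1941 to 2286 FPKM) and CDH1 (11.9 to 13.6 FPKM) were present, while VIL1, CDX1 and LGALS4 were at or near 0. Leukocyte markers summed to 7.37 to 9.37 FPKM, nearly all of it CD68, with PTPRC and CD3E at or near 0. Fibroblast markers summed to 3.82 to 5.85 FPKM, nearly all COL1A1, with DCN and LUM at 0, and endothelial markers to at most 0.197 FPKM.

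In limma with Benjamini-Hochberg adjustment, 15 of all tested genes (0.135%) were lower and 74 (0.667%) higher at an adjusted p under 0.05. Without Control 2 there were 114 lower and 210 higher, and without F. nucleatum 2 there were 4 and 13. The 7 gene lists, none of which contains any of the 26 genes, held 396 tested genes. Of these, ACVR1B and ID1 fell, both from the list of TGF-beta and BMP genes (19 tested). Both had also met the limits of the rule on the same FPKM values and were left out only by name. Their calls are thus not separate from that choice. In that list 3 genes had both F. nucleatum values below both Control values and 8 had both above, beside 21.1% and 26.1% of all genes. Among 23 p53 targets, CDKN1A, PLK3 and BTG2 rose, and 12 had both F. nucleatum values above. These 5 calls were lost without F. nucleatum 1 (adjusted p of 0.109 to 0.299) and without F. nucleatum 2 (0.0968 to 0.269), while the log2 differences moved little. ACVR1B went from -0.86 to -0.80 and -0.93, ID1 from -0.57 to -0.59 and -0.56, and BTG2 from 1.09 to 1.06 and 1.11. Without a filter on low values only BTG2 and PLK3 of the 5 were called, and in a fit without trend only ACVR1B and BTG2. Both F. nucleatum values lay below in 48 of 281 zinc-finger genes, 7 of 24 G2/M genes, 9 of 27 DNA repair genes and 3 of 22 sterol synthesis genes. Only 1 snoRNA host gene was tested, with overlapping groups.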

How the data were processed

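The deposited expression values were FPKM of the 4 input libraries, made by the authors with StringTie after trimming (Trim Galore 0.3.3) and alignment to hg19 with HISAT2 2.1.0, per the submitters' processing notes. The gene annotation behind the table is not given in the sources used here. The deposited peak lists, 1 per replicate (IP over its input), hold exon blocks, a gene name and a small score, taken here to be the p-value of the authors' peak caller. The methods name MACS2 with a Fisher test, whereas the layout is that of exomePeak, so the program was not identified.

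Peaks of the 4 lists sharing at least 1 bp of exon on 1 strand were merged into regions, with the strongest p-value kept per list. Starts in the lists are counted from 0 (78.1% of inner block starts equalled an exon start so counted) and are printed 1-based. Transcripts came from GENCODE release 44 on GRCh37, and all printed sequences from that genome. FPKM adjust for length and library total but not for other differences such as the recovery of GC-rich fragments. Genes whose mean reached 1 FPKM were fitted with limma 3.58.1 (eBayes with trend, R 4.3.3) on log2(FPKM + 1), a pseudocount that understates the change of low genes, and p-values were adjusted over all of them. The count model of the methods cannot be used on FPKM. Group values of peaks were compared by two-sided exact permutation tests over the 4 lists, whose smallest p is 0.333. GC correction was a lowess (span 0.3) of each library's log2 deviation on transcript GC content (statsmodels 0.14.6, Python 3.11.15).

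Every one of the 26 genes is named with its 4 FPKM values, together with the 3 genes on each side of the limit and genes with a lost or gained region. The genes, families and lists were chosen with earlier results of these data known. The lists were TGF-beta and BMP genes, p53 targets, zinc-finger, G2/M, DNA repair, sterol synthesis and snoRNA host genes, and markers of colon epithelium, leukocytes, fibroblasts and endothelium.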

Additional observations from a re-analysis of the deposited data

How the results depend on the processing

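With 2 libraries a group, most counts here moved when 1 library was left out. The second limit then had 1 value fewer to meet, and a lost or gained region 1 list fewer. These counts can rise for that reason alone. Apart from RLIM, which left the list without Control 1, every one of the 26 genes still met the limits. The cause of the changes in limma was not tested. Leaving out each in turn gave 64 (without Control 1) to 154 genes (without Control 2) past the limits in place of 26, and 4 (without F. nucleatum 2) to 114 (without Control 2) lower and 13 to 210 higher genes in limma in place of 15 and 74. It gave 0 to 5 lower list genes in place of 2, 1 to 9 lost regions in place of 1 (9 without Control 1, 7 without Control 2, 5 without F. nucleatum 2), and 0 to 1 gained regions in place of 0. The differences kept their sign, from -12 to -4 in peaks per list, -9.62 to -5.77 percentage points in genes with a peak and -6.50 to -1.51 in strength. A limit of 0.70 gave 10 genes and 0.80 gave 41, and a pseudocount of 0.1 gave 42, which included the 26. The 10 genes at 0.70 differed by 0 peaks per list and had 0 lost regions, and their strength differed by -7.90 in place of -4.40. Without a filter on low values limma called 5 lower, 35 higher and 0 list genes lower, and without trend 9 lower and 1 list gene, whose cause was not tested. Only p-values of at most 1e-05 gave 3 lost regions (ATAD3B, BEGAIN and PLEKHN1), and a reciprocal overlap of 50% gave 3 lost (BEGAIN, CAPN15 and PLEKHN1) and 1 gained (CAPN15). Assigning peaks by position gave 1 gained region, in KLHL23, which the file names for PHOSPHO2 and the read-through gene. The replicate differences of the 2 groups hardly correlated across 11088 genes (0.0243), so no shift shared by replicate number was seen in the input values. This cannot tell whether the replicates were handled in pairs. A replicate block gave 15 lower, 75 higher and 2 list genes. Scaling, other floors and the GC correction, the last chosen after seeing the data like the strength relative to each list, kept the number of genes within 1.5-fold.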
